A study of Mus musculus with 2 samples.

Results

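The complement genes described here are 9 of the 32285 genes listed for each cell, chosen by symbol: C1qa, C1qb, C1qc, C3, C4b, C3ar1, C5ar1, Cfb and Cfp. They were picked with their levels in these cells already known, so the levels across cell types are a description and carry no test. The cells were CD45+ leukocytes sorted from the left flank MC38 tumor of male C57BL/6 mice that carried a tumor on each flank, MC38 being a mouse colon cancer line. In both groups the right tumor, and not the left, was treated by microwave ablation (MWA, heating through an inserted antenna) at a volume near 300 mm3, and the left tumor was taken on day 8 after MWA. The MWA group received ablation. The paper gives this group an isotype control antibody in its tumor growth experiment, while the label of the library names MWA only. The MWA plus TIGIT group received ablation and an antibody against TIGIT, a coinhibitory receptor of T and NK cells, injected into the peritoneum from day 1 every 3 days, 3 times according to the labels. Each group was 1 library, and the number of mice behind a library is not given in the sources used here. No tumor without ablation was measured. The spread between mice is therefore unknown. No test between the groups is given, and every interval below covers counting error only.

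Complement is a set of plasma proteins that mark targets for uptake and attract leukocytes, and part of it is made locally by macrophages. C1q, built from the chains encoded by C1qa, C1qb and C1qc, recognises bound antibody and other surfaces and starts the classical pathway, in which C4 and then C3 are cleaved. Factor B (Cfb) supplies the protease of the alternative C3 convertase, and properdin (Cfp) stabilises that convertase. The fragments C3a and C5a act on leukocytes through the receptors encoded by C3ar1 and C5ar1. C1q is a widely used marker of tumor-associated macrophages (TAMs).

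After filtering, 9231 cells of the MWA library and 9127 cells of the MWA plus TIGIT library were kept, with 56764263 and 67575669 unique molecular identifiers (UMIs, 1 for each captured RNA molecule). The MWA plus TIGIT library was the deeper one, with a median of 6330 UMIs per cell against 5342. Ptprc, the gene of CD45, was detected in 84.4% of MWA cells and 88.1% of MWA plus TIGIT cells, and in 87.6% and 90.7% of TAM-like cells. The libraries shared 37 cell barcodes. Cells were clustered with the 9 genes and the 57 other complement genes compared below left out of the clustering features. Clusters were named from marker lists that hold none of the 9. TAM-like cells numbered 3647 and 3748, monocyte-like cells 759 and 853, neutrophil-like cells 99 and 89, and T-like and NK-like cells 4234 and 3927. The 10 TAM markers summed to 19076 and 23296 CPM (counts scaled to 1000000 UMIs of the type) in TAM-like cells. They were not absent elsewhere, at 10969 and 12564 CPM in the monocyte-like cluster led by Ly6c2 and Ccl24, 4104 and 4091 CPM in that led by Ace, and 686 and 790 CPM in T-like and NK-like cells. The 9 monocyte markers were highest in the Ace cluster, at 10413 and 12351 CPM, against 2857 and 3231 CPM in the Ccl24 cluster and 518 and 627 CPM in TAM-like cells. Wherever 2 values are given in turn, the MWA library comes first.

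The 9 genes lie on 5 chromosomes of the mouse build GRCm38. C1qa, C1qc and C1qb are neighbors on the minus strand of chromosome 4, at chr4:136895917-136898803, chr4:136889804-136893065 and chr4:136880129-136886187, with 2851 and 3616 bases between them and no other coding gene in the gaps. C4b (chr17:34728380-34743882) and Cfb (chr17:34856374-34862518) lie in the same region of chromosome 17, and C3 lies farther along at chr17:57203970-57228136. C3ar1 is at chr6:122847138-122856161, C5ar1 at chr7:16246743-16259540 and Cfp at chrX:20925454-20931555. Every one of the 9 is on the minus strand. The stretches before the annotated starts of C1qb, C1qc and C3 are shown because C1qb and C1qc are neighbors with near-equal patterns over the myeloid cells below and C3 has another pattern. They come from RefSeq (GRCm38.p6), run 5′ to 3′ on the strand of the gene, and stop at the first annotated exon.
C1qb, chr4:136886201-136886450: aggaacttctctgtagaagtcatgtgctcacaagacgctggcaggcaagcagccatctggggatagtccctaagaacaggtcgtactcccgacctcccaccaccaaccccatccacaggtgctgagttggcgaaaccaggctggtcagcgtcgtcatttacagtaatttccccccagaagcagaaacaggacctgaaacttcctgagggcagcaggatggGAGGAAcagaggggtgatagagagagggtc
C1qc, chr4:136893066-136893164: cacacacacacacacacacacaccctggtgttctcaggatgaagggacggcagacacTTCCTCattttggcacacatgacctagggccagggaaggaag
C3, chr17:57228137-57228386: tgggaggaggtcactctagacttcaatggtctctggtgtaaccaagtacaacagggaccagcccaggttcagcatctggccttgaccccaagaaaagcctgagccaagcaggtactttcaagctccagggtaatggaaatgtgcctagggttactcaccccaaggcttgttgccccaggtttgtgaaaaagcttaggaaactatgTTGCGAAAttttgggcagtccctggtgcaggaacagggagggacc
Capitals mark matches to motifs searched on both strands in a 250-base RefSeq promoter window of each gene. For C1qc, C3ar1 and C5ar1 only the first 99, 246 and 48 bases of the window lie before an annotated exon. The search ran over the whole window. GAGGAA, the core bound by the macrophage factor PU.1, was found for C1qb as printed and for C1qc on the opposite strand, where it reads TTCCTC. It was in 2 of the 6 of these genes that have a table entry and in 23.3% of all 32851 promoters. TTGCNNAA, the C/EBP half-palindrome, was found for C3 and in 9.56% of promoters. TGANTCA, the AP-1 site, was found only for C3ar1 among the 6 and in 6.75% of promoters. The STAT site TTCNNNGAA (7.02% of promoters) and the interferon-stimulated response element (2.98%) were found for none of the 6. C1qa, C4b and Cfb had no entry and were not searched for any motif. A match describes the letters of the window and does not show binding. No motif match in the printed stretches overlaps another.

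Among the named types, C1q RNA was highest in TAM-like cells in both libraries. It was lower in the Hilpda Mmp12 TAM-like kind and in Ccl24 monocyte-like cells, and lower again in the other named types. The chains are given together as C1q (the sum of C1qa, C1qb and C1qc), since they form 1 protein. The highest levels were in the kind led by Selenop, at 16730 and 17939 CPM, and in the kind led by Slc7a2 and Arg1 (Arg1 encodes an arginine-degrading enzyme), at 16216 and 18113 CPM. Which of the 2 kinds was higher differed between the libraries. Interferon-induced TAM-like cells held 14629 and 14009 CPM, and cycling TAM-like cells 14128 and 14966 CPM. The order of these 4 kinds was not the same in both libraries. The kind led by heat shock and hypoxia genes, named here by Hilpda and Mmp12, held 8160 and 9536 CPM. Selenop TAM-like cells were thus 2.05-fold above it in the MWA library and 1.88-fold in the MWA plus TIGIT library. Ccl24 monocyte-like cells held 5739 and 5109 CPM. Ace monocyte-like cells held 804 and 707 CPM, so that all TAM-like cells were 18.0-fold [16.4, 19.9] and 22.2-fold [20.2, 24.5] above them.

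Some myeloid clusters were left unnamed and stay out of the types compared here, and 2 of them held C1q at the level of TAM-like cells. A low-UMI cluster of 227 and 313 cells (medians of 1335 and 1173 UMIs), led by the mast cell genes Cma1, Mcpt4 and Tpsb2, held 14941 and 12946 CPM of C1q. Its medians after thinning to 1000 UMIs were 14 and 9, over the 154 and 184 cells deep enough. It also held 533 and 447 CPM of C3ar1 and 101 and 99.9 CPM of C4b, and in the MWA library both lay above every named type. A cluster of 13 and 8 cells led by T cell genes such as Cd3g and Gzma held 13956 and 14036 CPM of C1q. The other one, of 29 and 24 cells led by Ctsk and Acp5, held 1758 and 852 CPM. Below, highest and lowest refer to the named types.

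**Figure D1:**
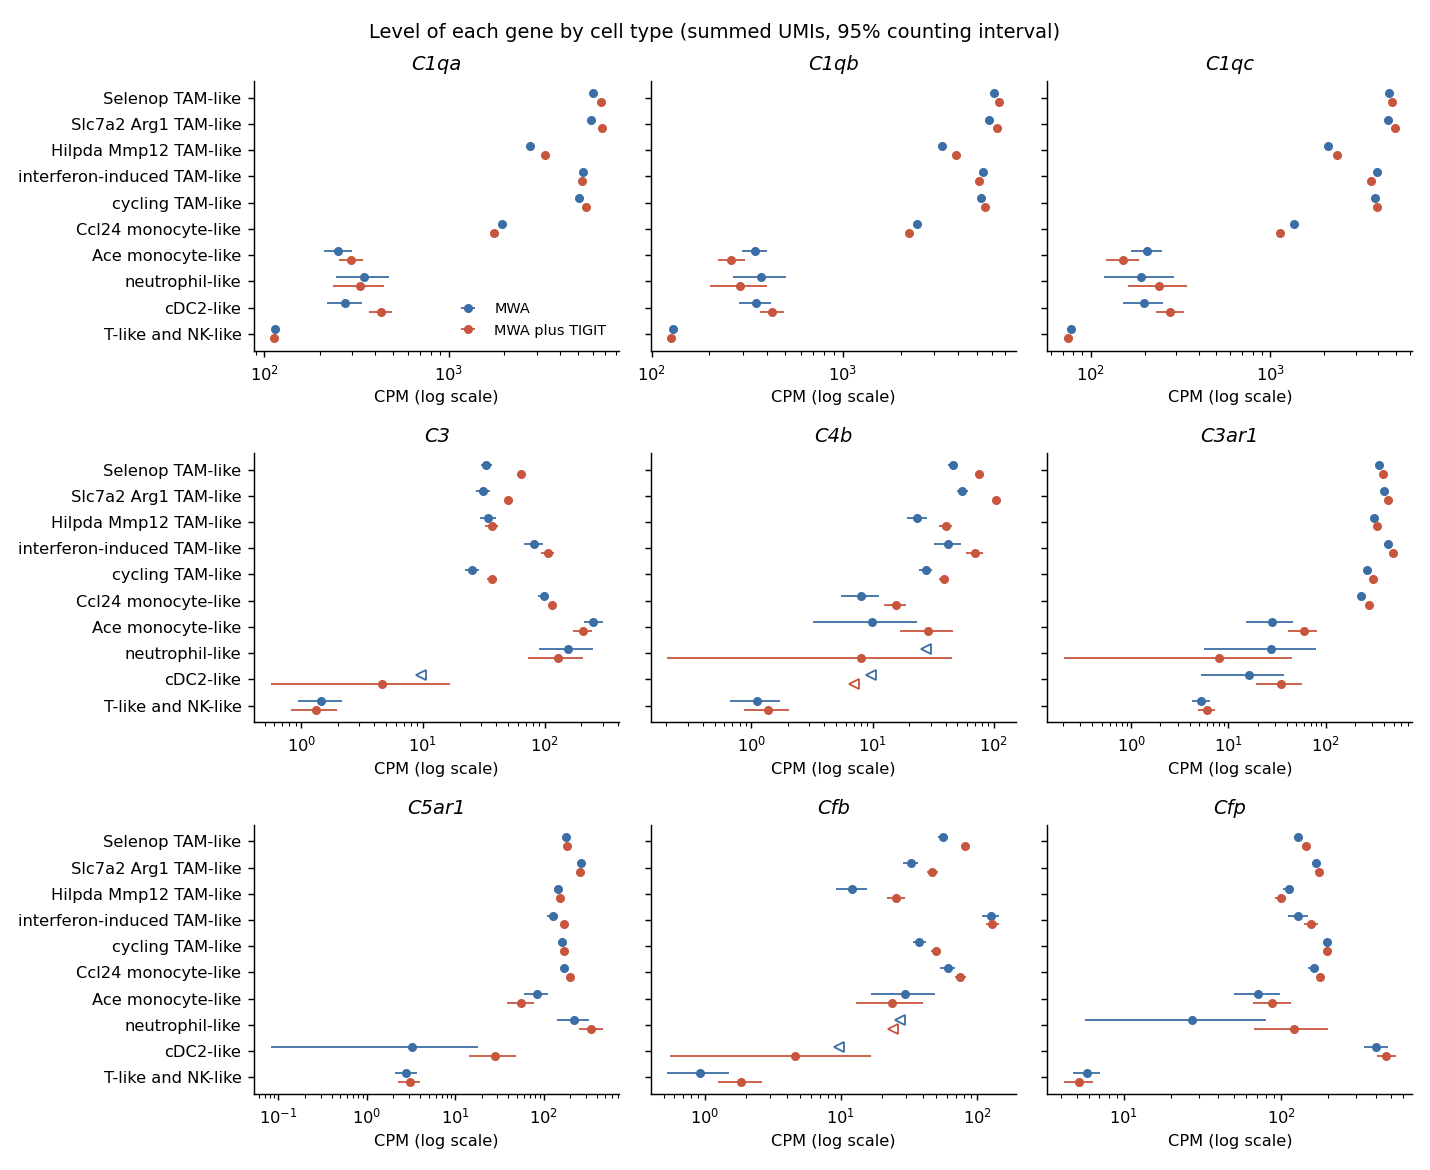
Level of each of the 9 genes in CPM (log scale, a separate axis for each gene) in 10 cell types, with 1 point for each library and its 95% counting interval, and an open triangle at the value of 3 counts where no UMI was found. C1qa, C1qb and C1qc are lower from TAM-like to Ace monocyte-like cells, C3 is highest in Ace monocyte-like cells, and Cfp is highest in cDC2-like cells.

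Low C1q counts in other cells have to be read against the RNA that is free in the droplets. T-like and NK-like cells, which are not known to make C1q, held 323 and 315 CPM, and 67.9% and 69.1% of them had a C1q UMI at a median of 3406.5 and 3578 UMIs per cell. That is 1.31 and 1.34 C1q UMIs per cell, and B-like cells had 1.09 and 1.30. Neutrophil-like cells had 1.01 and 1.20 C1q UMIs per cell, at or below the level of the lymphocytes. Their totals were small (medians of 932 and 1160 UMIs), and their CPM was higher, at 909 and 859. After thinning to 1000 UMIs, 43.2% and 47.1% of the 44 and 51 neutrophil-like cells deep enough had no C1q UMI. The shares were 71.3% and 71.8% in T-like and NK-like cells. The measures thus differ for neutrophil-like cells, and the source of their C1q was not tested. Ace monocyte-like cells had 3.62 and 3.93 C1q UMIs per cell, against 35.2 and 41.98 in Ccl24 monocyte-like cells and 131 and 175 in all TAM-like cells. In cells thinned to 1000 UMIs each, 40.2% and 29.3% of Ace monocyte-like cells had a C1q UMI against 28.7% and 28.2% of T-like and NK-like cells. Their intervals ([30.8, 50.1] and [20.6, 39.3]) cover values close to those of the lymphocytes in the MWA plus TIGIT library, so C1q in Ace monocyte-like cells was not separable from background there by this measure.

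The 3 chains had similar proportions in 4 of the 5 TAM-like kinds and shifted in the Hilpda Mmp12 kind. In all TAM-like cells C1qa, C1qb and C1qc made up 35.9%, 36.8% and 27.3% of the C1q UMIs in the MWA library and 36.9%, 36.6% and 26.5% in the MWA plus TIGIT library. In Ccl24 monocyte-like cells C1qc took 23.6% and 22.3% and C1qb 42.6% and 43.5%, and in Hilpda Mmp12 TAM-like cells C1qb took 40.5% and 40.6%. Both types thus had more C1qb and less C1qc than the other TAM-like kinds. T-like and NK-like cells, whose C1q is read as background, had C1qb at 40.1% and 40.03% and C1qc at 24.2% and 23.9%.

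Per cell, C1q was spread over nearly all TAM-like cells and split the Ccl24 monocyte-like cells. In cells thinned to 1000 UMIs, the median was 16 and 18 C1q UMIs in Selenop TAM-like cells and the same in Slc7a2 Arg1 TAM-like cells. It was 7 and 9 in Hilpda Mmp12, 14 and 14 in interferon-induced and 14 and 15 in cycling TAM-like cells. Of all TAM-like cells, 98.2% and 98.3% had a C1q UMI after thinning. Ccl24 monocyte-like cells had a median of 1 in each library, with no C1q UMI in 38.7% and 39.4% of cells and a 90th percentile of 14 UMIs. Interferon-induced TAM-like cells had a wide spread as well, with the middle 50% of MWA plus TIGIT cells between 5 and 20 UMIs.

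**Figure D2:**
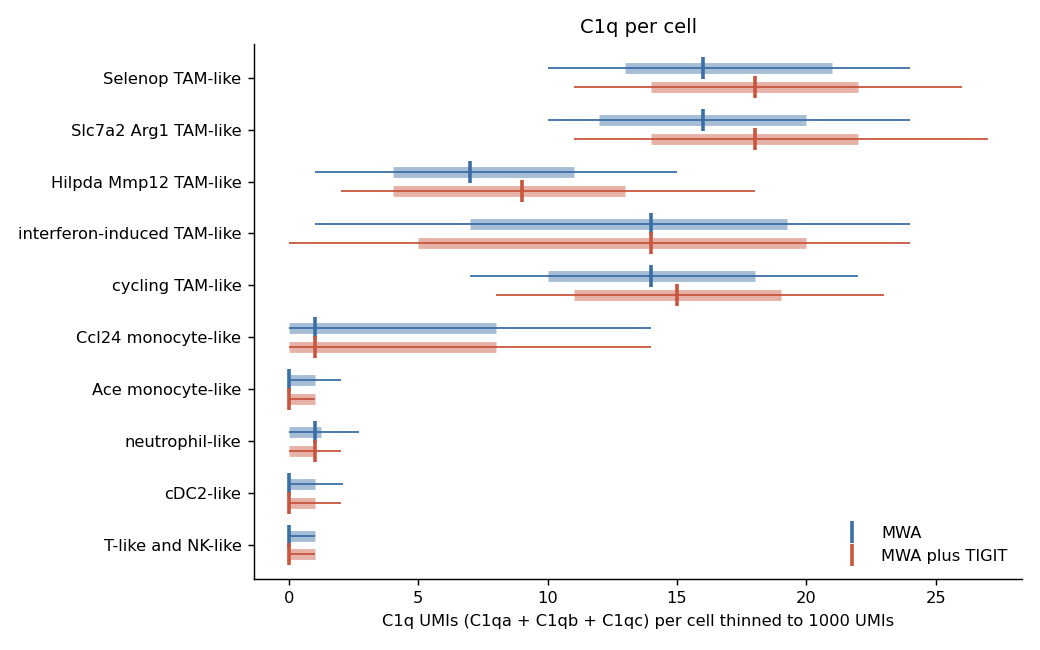
C1q UMIs (C1qa, C1qb and C1qc together) per cell after thinning each cell to 1000 UMIs, by cell type and library; the tick is the median, the box the middle 50% of cells and the line the 10th to 90th percentile. The medians of Selenop and Slc7a2 Arg1 TAM-like cells are 16 and 18, and Ccl24 monocyte-like cells run from 0 to 14.

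The size of the ratio of TAM-like to monocyte-like C1q depended on how cells were named and which were kept. All TAM-like cells were 2.80-fold [2.76, 2.83] above all monocyte-like cells in the MWA library and 3.33-fold [3.29, 3.37] in the MWA plus TIGIT library, that is log2 ratios of 1.48 and 1.73. With cells named 1 by 1 from their own marker scores the log2 ratios were 2.72 and 2.68, and with cells over 5000 UMIs left out, which kept 584 and 397 TAM-like and 236 and 128 monocyte-like cells, they were 3.80 and 3.90. The direction was the same under every alternative tried.

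Within the Ccl24 monocyte-like cells the other complement genes did not follow C1q in 1 direction. The cells were split by their C1q UMIs in 1000 into none (249 and 294 cells), 1 to 3 (147 and 151), 4 to 7 (84 and 108) and 8 or more (163 and 194). Along this split the monocyte gene Ly6c2 was lower, from 467 to 125 CPM and from 607 to 180 CPM, and the lipid carrier gene Apoe higher, from 4466 to 11201 CPM and from 6095 to 12791 CPM. C5ar1 went from 193 [170, 219] CPM in cells without C1q to 132 [112, 154] CPM in those with most in the MWA library, and from 243 [223, 265] to 154 [137, 173] CPM in the MWA plus TIGIT library. Both libraries thus had lower C5ar1 at the high C1q end, with intervals that do not overlap. C3 went from 120 [102, 140] to 74.8 [60.3, 91.7] CPM in the MWA library. In the MWA plus TIGIT library it was 127 [112, 143], 150 [128, 174], 70.2 [54.9, 88.4] and 104 [89.4, 119] CPM, without an even order. Cfb went the other way in the MWA library, from 38.9 [28.9, 51.3] to 84.5 [69.1, 102] CPM, while in the MWA plus TIGIT library its intervals overlapped, from 71.1 [60.3, 83.3] to 84.5 [71.7, 98.9] CPM. C3ar1 stayed between 213 and 252 CPM and between 250 and 290 CPM, and Cfp had no order. C4b was counted by no more than 30 UMIs in any of these bins.

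**Figure D3:**
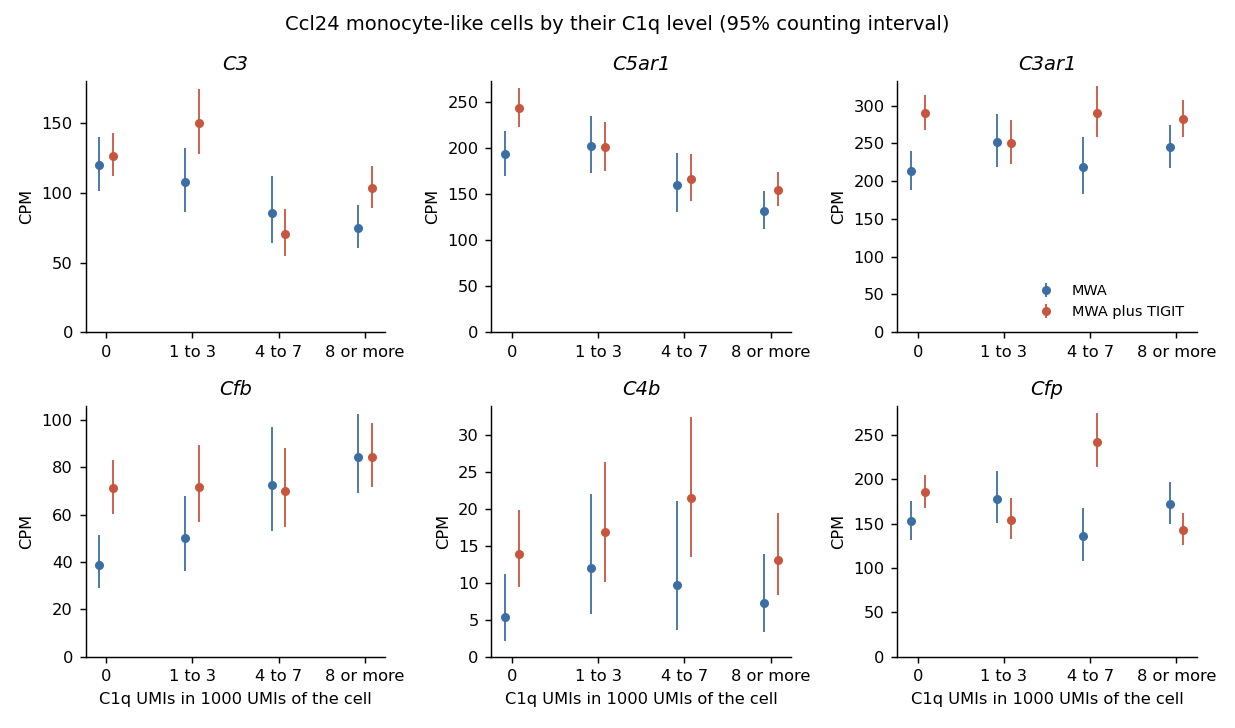
CPM of 6 complement genes in Ccl24 monocyte-like cells split by the number of C1q UMIs found in 1000 UMIs of the cell, with 95% counting intervals, for both libraries. C5ar1 is lower at the high C1q end in both libraries (193 to 132 and 243 to 154 CPM), and Cfb is higher there in the MWA library (38.9 to 84.5 CPM).

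C3, the central component on which the pathways converge, had its highest level by kind not in macrophages but in Ace monocyte-like cells. These held 252 [210, 300] and 205 [170, 245] CPM, and 58.0% and 54.7% of them had a C3 UMI. Neutrophil-like cells followed with 155 [90.1, 248] and 128 [73.4, 209] CPM, on 17 and 16 UMIs in 12 cells of each library, so their interval overlapped that of the Ace cells in both libraries. They were the highest of the 4 broad classes in both libraries. With cells thinned to 1000 UMIs they were also the highest kind in the MWA library, so the top type of C3 is not settled. Ccl24 monocyte-like cells held 98.2 and 115 CPM and interferon-induced TAM-like cells 81.5 and 106 CPM. The other TAM-like kinds were lower, with Selenop at 33.3 and 63.4, Slc7a2 Arg1 at 31.4 and 50.3, Hilpda Mmp12 at 34.3 and 36.7 and cycling at 25.4 and 37.1 CPM. Ace monocyte-like cells were 7.62-fold [6.29, 9.17] above all TAM-like cells in the MWA library and 3.97-fold [3.28, 4.77] in the MWA plus TIGIT library. DC-like cells (2.94 and 2.22 CPM) and T-like and NK-like cells (1.46 and 1.31 CPM) were near the bottom. C3 was sparse in single TAM-like cells, with a UMI in 19.1% and 29.2% of them and at most 11 and 22 UMIs in a cell.

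C4b, whose protein follows C1q in the classical pathway, was, like C1q, higher in TAM-like than in monocyte-like cells, with 39.2 and 67.0 CPM in all TAM-like cells against 8.27 and 16.6 CPM in all monocyte-like cells. The ratio of these was 4.74-fold [3.42, 6.76] and 4.02-fold [3.33, 4.90]. Its highest kind was Slc7a2 Arg1 TAM-like cells, at 54.9 [49.7, 60.5] and 104 [98.1, 111] CPM, followed by Selenop TAM-like cells at 46.0 [41.9, 50.5] and 74.6 [69.7, 79.7] CPM. Their intervals overlap in the MWA library and do not in the MWA plus TIGIT library. Interferon-induced (41.4 and 69.5 CPM), cycling (27.3 and 38.6 CPM) and Hilpda Mmp12 TAM-like cells (23.3 and 39.9 CPM) came next. Neutrophil-like cells held 0 and 1 C4b UMIs, for which 3 counts of their totals would be 27.3 and 24.1 CPM. The near-identical copy C4a had 5 and 2 UMIs in TAM-like cells, and reads that match both copies could be split or lost in the authors' counting, so the C4b level is uncertain.

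Cfb and Cfp, both of the alternative pathway, were placed differently. Cfb was highest in interferon-induced TAM-like cells, at 126 [109, 145] and 129 [115, 145] CPM. Selenop TAM-like cells held 55.8 and 81.3 CPM and Ccl24 monocyte-like cells 60.7 and 75.1 CPM, while Hilpda Mmp12 TAM-like cells held only 12.05 and 25.5 CPM. Selenop TAM-like cells were 4.63-fold [3.54, 6.15] and 3.19-fold [2.70, 3.80] above the Hilpda Mmp12 kind. No Cfb UMI was found in neutrophil-like cells of either library, and T-like and NK-like cells held 0.932 and 1.85 CPM. Cfb overlaps the annotated gene Gm20547 on the same strand, which is not among the listed genes. Cfp was highest in cDC2-like cells (51 and 52 cells), at 404 [336, 481] and 469 [406, 538] CPM. These cells were 2.63-fold [2.19, 3.14] and 2.93-fold [2.54, 3.38] above all TAM-like cells, and 6.73-fold and 6.51-fold above cDC1-like cells. The cDC2-like cluster also held plasmacytoid DC markers, and with its cells split by which list had more UMIs, the 45 and 46 cells with more cDC2 markers held 436 and 458 CPM. The 5 and 6 cells with more plasmacytoid DC markers held 47.5 CPM (1 UMI) in the MWA library and 589 [360, 910] CPM (20 UMIs) in the MWA plus TIGIT library, where they lay above the former, with overlapping intervals. The cells with more cDC2 markers held 123 of the 125 and 182 of the 202 Cfp UMIs of the cluster, in 36 of 45 and 39 of 46 cells. Whether the few cells with more plasmacytoid DC markers carry Cfp as well is not settled. Cycling TAM-like cells held 196 and 197 CPM of Cfp, Slc7a2 Arg1 TAM-like cells 168 and 173, Ccl24 monocyte-like cells 162 and 177, and the other TAM-like kinds between 99.8 and 154 CPM.

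The anaphylatoxin receptors were spread over TAM-like and Ccl24 monocyte-like cells, and both were detected in many of these cells. C3ar1 was highest in interferon-induced TAM-like cells, at 442 [410, 477] and 500 [472, 529] CPM, then in Slc7a2 Arg1 at 398 and 439, Selenop at 354 and 392, Hilpda Mmp12 at 315 and 339 and cycling TAM-like cells at 267 and 308 CPM. Ccl24 monocyte-like cells held 232 and 281 CPM and Ace monocyte-like cells 27.8 and 59.4 CPM, the latter on 14 and 35 UMIs. C5ar1, known also as a neutrophil receptor, was highest in Slc7a2 Arg1 TAM-like cells of the MWA library, at 263 [252, 275] CPM, and in neutrophil-like cells of the MWA plus TIGIT library, at 345 [250, 465] CPM. Neutrophil-like cells of the MWA library held 218 [140, 325] CPM and Slc7a2 Arg1 TAM-like cells of the MWA plus TIGIT library 255 [245, 265] CPM, so the order of these types is not settled. The neutrophil values rest on 24 and 43 UMIs. Selenop TAM-like cells held 181 and 184 CPM and Ace monocyte-like cells 83.4 and 56.0 CPM. C3ar1 had 3 and 1 UMIs in neutrophil-like cells. Both receptors were detected in 60.7% and 68.1% of TAM-like cells, and in 34.9% and 49.3% of Ccl24 monocyte-like cells, shares that move with depth. Of TAM-like cells positive for C5ar1, 90.7% and 93.3% also had C3ar1, against 75.4% and 82.4% of those without C5ar1. Each receptor alone was common, with C3ar1 in 3124 of 3647 and 3386 of 3748 TAM-like cells and C5ar1 in 2442 and 2735. These cells were not thinned, so all these shares move with depth. Whether the receptors go together beyond that was not tested.

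The genes whose levels over 16 clusters were most like those of the members were named by a fixed measure of likeness. The measure was the lower of the Pearson correlations of log2(CPM + 1) in the MWA and the MWA plus TIGIT library, over 4547 genes with at least 50 CPM in a cluster of both, and it has no p, since clusters of 1 library share their depth and free RNA. C1q was most like Ms4a7 (0.993), Pf4 (0.983) and Gatm (0.981). C3 was most like Gm5150 (0.951), Slc11a1 (0.925) and Alas1 (0.909). C4b was nearest to Siglec1 (0.912) and Trem2 (0.901), Cfb to Cx3cr1 (0.946), Msr1 (0.935) and Acp2 (0.920), and Cfp to Prcp (0.946), Dapk1 (0.936) and Tbc1d9 (0.929). C3ar1 was nearest to Trem2 (0.972), Hebp1 (0.964) and Adgre1 (0.962), and C5ar1 to Pla2g7 (0.966), Rab31 (0.958) and Cd14 (0.954). Ms4a7, Pf4, Trem2 and Adgre1 were also among the markers that named the TAM-like clusters, Pf4 through the list for the Selenop kind. With 10 CPM added in place of 1 CPM, 9 of the 21 choices were made again.

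Between the libraries, C3 and C4b were the members that differed most in TAM-like cells, both higher in the MWA plus TIGIT library. A gene was counted as past the fold when it differed by at least 1.5-fold with a 95% counting interval on 1 side of no difference, among genes with at least 20 UMIs in the type. In all TAM-like cells C3 had 1089 UMIs, or 33.1 CPM, in the MWA library and 2158 UMIs, or 51.6 CPM, in the MWA plus TIGIT library, a log2 ratio of 0.64 [0.54, 0.75]. With equal weight for the 5 TAM-like kinds, an alternative chosen after seeing the data, it was 0.52 and below 1.5-fold. C4b had 1290 UMIs (39.2 CPM) and 2799 UMIs (67.0 CPM), a log2 ratio of 0.77 [0.68, 0.87]. These were the 2 of 9 members past the fold in the higher direction, against 1.35% of the 12786 genes tested, and no member was past it in the lower direction, against 1.49% of genes. Cfb was below the fold with 42.2 and 59.0 CPM and a log2 ratio of 0.48 [0.39, 0.58]. The other 6 members had log2 ratios between 0.05 (C5ar1) and 0.17 (C3ar1), with 0.16 for C1qa, 0.11 for C1qb, 0.07 for C1qc and 0.06 for Cfp. The median was 0.16 over the 9 members and 0.04 over all genes tested. C1q as a sum had a log2 ratio of 0.12 [0.11, 0.12]. Its interval is narrow only because the counts are large, and among genes with at least 1000 UMIs the 5th to 95th percentiles of the ratio ran from -0.17 to 0.24, so C1q lay inside the common spread between these libraries.

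The C3 and C4b differences stayed when the 10 cells with most UMIs of the gene were left out of each library. The 10 TAM-like cells with most C3 UMIs held 7.44% and 7.14% of them, and those with most C4b UMIs 8.76% and 6.72%. Without these cells the log2 ratios were 0.65 [0.54, 0.76] for C3 and 0.81 [0.71, 0.91] for C4b. After thinning to 1000 UMIs, C3 was found in 3.03% [2.49, 3.64] of MWA and 4.75% [4.09, 5.48] of MWA plus TIGIT TAM-like cells, and C4b in 3.74% [3.15, 4.41] and 5.58% [4.87, 6.36]. The unthinned shares, which also carry the depth difference, were 19.1% and 29.2% for C3 and 15.9% and 24.7% for C4b. C3 and C4b are also fibroblast genes, so the values of the 7 fibroblast markers are given beside them. In all TAM-like cells the list summed to 2.89 and 4.14 CPM (95 and 173 UMIs, with all 7 genes detected in each library). In Slc7a2 Arg1 TAM-like cells it summed to 2.97 and 2.12 CPM and in Selenop TAM-like cells to 2.94 and 3.66 CPM. The list was thus higher in the MWA plus TIGIT library in all TAM-like cells and in the Selenop kind, and lower there in the Slc7a2 Arg1 kind. Its part in the C3 and C4b differences was not tested.

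By kind, the C4b difference was present across TAM-like and monocyte-like cells, and C3 was past the fold in the Selenop and Slc7a2 Arg1 kinds. For C4b the log2 ratio was 0.92 [0.76, 1.09] in Slc7a2 Arg1, 0.70 [0.53, 0.86] in Selenop, 0.78 [0.45, 1.11] in Hilpda Mmp12, 0.75 [0.32, 1.19] in interferon-induced and 0.50 [0.27, 0.73] in cycling TAM-like cells. It was 0.94 [0.35, 1.57] in Ccl24 monocyte-like cells on 32 and 95 UMIs. In Ace monocyte-like cells it was 1.54 [0.04, 3.33] on 5 and 17 UMIs, a call that ended with TMM factors. For C3 it was 0.93 [0.74, 1.12] in Selenop and 0.68 [0.45, 0.91] in Slc7a2 Arg1 TAM-like cells, 0.54 [0.31, 0.78] in cycling and 0.37 [0.06, 0.70] in interferon-induced cells. The cycling and Slc7a2 Arg1 intervals overlap, and with thinned cells C3 was past the fold in the Selenop (1.02) and cycling (0.93) kinds and not in Slc7a2 Arg1. In Hilpda Mmp12 TAM-like cells it was 0.10 [-0.20, 0.39], and in Ccl24 monocyte-like cells 0.22 [0.04, 0.41]. In Ace monocyte-like cells, the type with the highest level, it was -0.30 [-0.67, 0.07]. The intervals of C3 in Selenop and in Hilpda Mmp12 TAM-like cells do not overlap, but they cover counting error alone and the difference between kinds was not tested. Cfb differed most in Hilpda Mmp12 TAM-like cells, with 60 and 159 UMIs and a log2 ratio of 1.08 [0.64, 1.53], and was 0.04 [-0.23, 0.30] in interferon-induced cells, where it is highest.

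Counted over the kinds, 2 of 9 members were past the fold and higher in Selenop TAM-like cells (1.44% of genes), 2 of 9 in Slc7a2 Arg1 (2.04%), 2 of 9 in Hilpda Mmp12 (2.01%), 1 of 9 in interferon-induced (2.48%) and 0 of 9 in cycling TAM-like cells (1.77%). It was 1 of 9 in Ccl24 monocyte-like cells (2.3%), 2 of 9 in Ace monocyte-like cells (3.57%), 0 of 5 tested in neutrophil-like cells (4.33%) and 1 of 5 in cDC2-like cells (5.96%). None was past it in the lower direction in any of these types. The shares of genes past it in that direction were 1.19% in Selenop, 1.59% in Slc7a2 Arg1, 1.51% in Hilpda Mmp12, 1.82% in interferon-induced and 1.19% in cycling TAM-like cells. They were 1.36% in Ccl24 and 1.79% in Ace monocyte-like cells, 8.09% in neutrophil-like and 1.76% in cDC2-like cells. The second gene in Ace monocyte-like cells was C3ar1, with 14 and 35 UMIs and a log2 ratio of 1.09 [0.16, 2.10]. The gene in cDC2-like cells was C1qa, at 85 and 185 UMIs, and the call ended with TMM factors. After thinning to 1000 UMIs, 30.0% [17.9, 44.6] and 34.6% [22.0, 49.1] of cDC2-like cells had a C1q UMI against 28.7% and 28.2% of T-like and NK-like cells. By this share C1q in cDC2-like cells was not separable from background. By CPM it was higher in cDC2-like cells, at 821 and 1134 CPM against 323 and 315 CPM in T-like and NK-like cells. Cfp was past the fold in the DC-like cells as 1 class (160 and 224 UMIs, 0.67 [0.37, 0.97], 1 of 5 members tested, with 5.38% of genes higher and 2.68% lower) but not in cDC2-like cells (0.21 [-0.12, 0.55]), and the call for the class ended with TMM factors, with marker scores and with thinned cells. Marker scores put other cells in the DC class, so that alternative does not compare the same cells. The share of cDC2-like among DC-like cells was higher in the MWA plus TIGIT library, at 52 of 102 cells against 51 of 142, and its part in the Cfp difference was not tested. In T-like and NK-like cells Cfb had 16 and 31 UMIs, or 0.932 and 1.85 CPM, against 42.2 and 59.0 CPM in all TAM-like cells. Whether these UMIs are more than free RNA was not tested. With a log2 ratio of 0.99 [0.07, 1.96], Cfb was the 1 of 9 members past the fold in T-like and NK-like cells (2.46% of genes higher, 1.22% lower). In all monocyte-like cells 1 of 9 was, C4b (2.17% of genes higher, 1.47% lower).

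**Figure D4:**
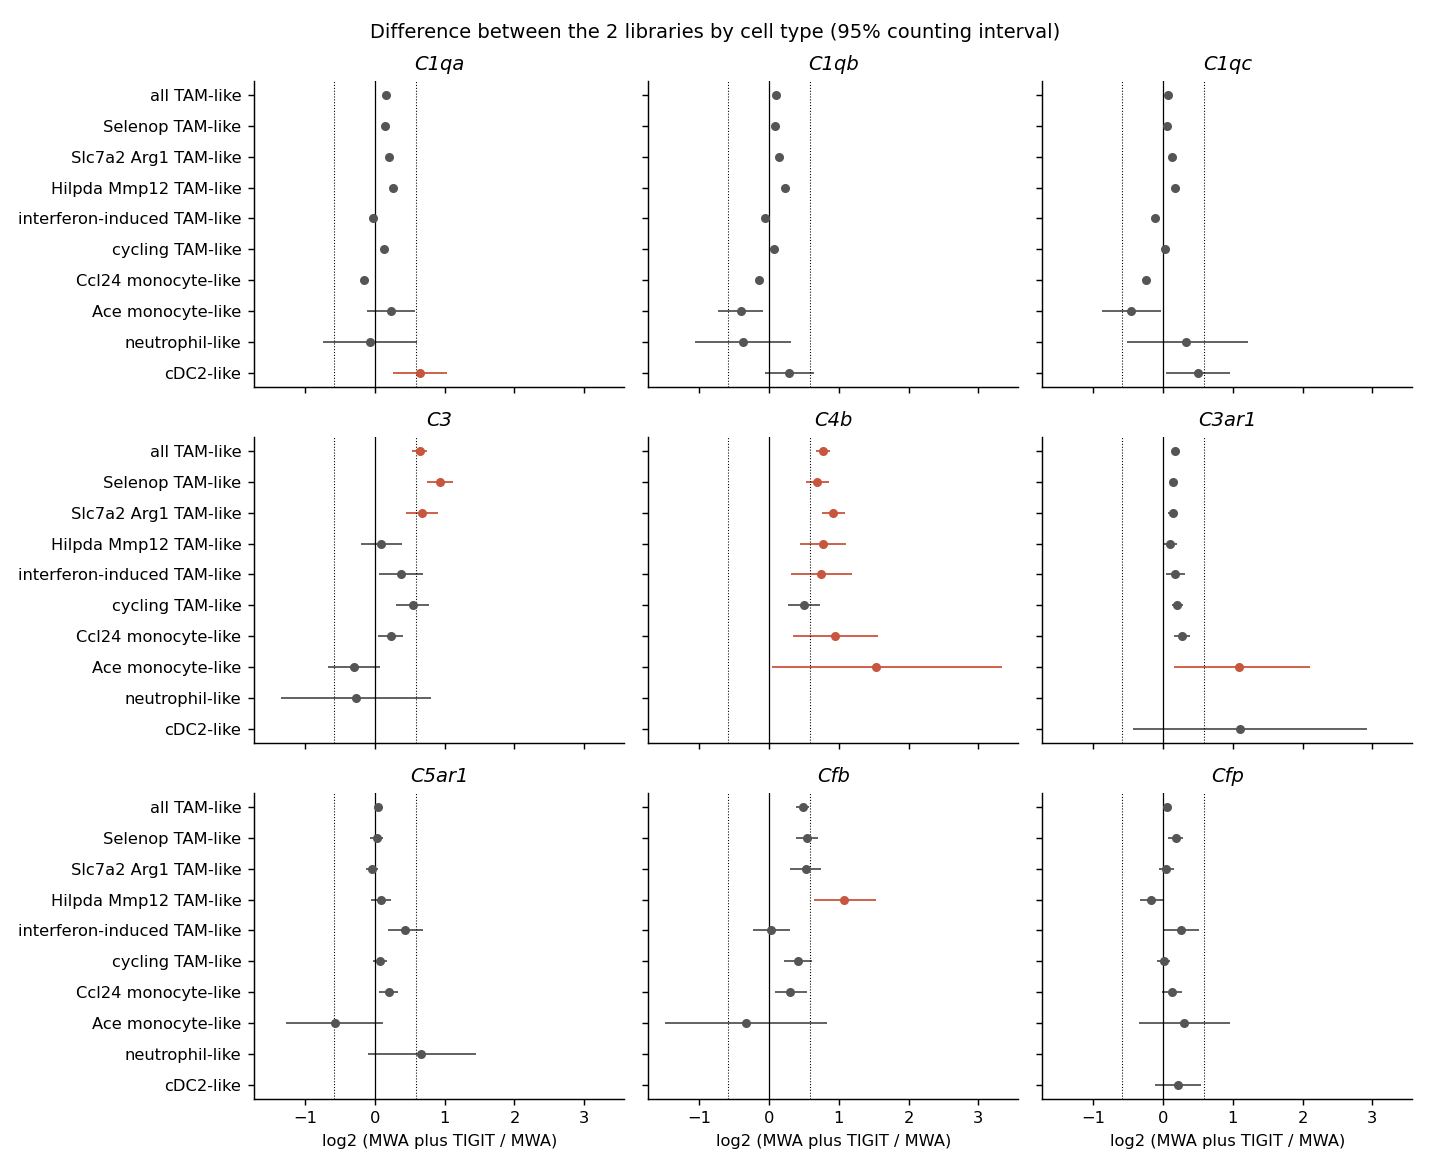
Log2 ratio of the MWA plus TIGIT over the MWA library for each gene in each cell type with at least 20 UMIs, with 95% counting intervals; dotted lines mark 1.5-fold, and colored points are past it with an interval off 0. C4b is to the right of 0 in every type shown, C3 is past 1.5-fold in the Selenop and Slc7a2 Arg1 kinds (0.93 and 0.68), and the C1q chains lie near 0 in TAM-like cells.

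The sign of the C1q ratio differed by type, within the common spread between the libraries. Its log2 ratio was 0.10 in Selenop, 0.16 in Slc7a2 Arg1, 0.22 [0.21, 0.24] in Hilpda Mmp12 and 0.08 in cycling TAM-like cells, and -0.06 [-0.09, -0.04] in interferon-induced TAM-like cells. In Ccl24 monocyte-like cells it was -0.17 [-0.19, -0.14], and these cells had similar shares without any C1q UMI (38.7% and 39.4%). None of these was past 1.5-fold. Each lay inside the 5th to 95th percentiles of genes with at least 1000 UMIs in its type. These percentiles ran from -0.20 to 0.32 in Hilpda Mmp12 and from -0.33 to 0.27 in interferon-induced TAM-like cells. In Ccl24 monocyte-like cells they ran from -0.20 to 0.24.

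Of the 57 other complement genes in a list of recognition molecules, proteases, regulators and receptors, 22 had at least 20 UMIs in TAM-like cells and 23 in any of the TAM-like, monocyte-like, neutrophil-like or DC-like classes. In TAM-like cells 1 of 22 was past the fold and higher in the MWA plus TIGIT library (1.35% of all genes) and 0 were lower. The median log2 ratio of the 22 was 0.16. Among recognition and protease genes (19 listed, 6 tested), C1ra, which encodes a protease of the C1 complex, had a log2 ratio of 0.52 [0.29, 0.76] and C1rl one of 0.32 [0.03, 0.61]. The ficolin gene Fcna had 0.25 [0.08, 0.42], and C2, the partner of C4, 0.66 [-0.11, 1.47] on 22 and 44 UMIs. The rest of those tested were Colec12 at 0.18 [-0.20, 0.55] and Masp1 at -0.05 [-1.46, 1.39]. Fluid-phase regulators (12 listed, 2 tested) had none past the fold. Complement receptor 3, made of the integrin chains Itgam and Itgb2, had 0.13 and 0.16 for its chains, and the second C5a receptor gene C5ar2 had -0.03 [-0.18, 0.13]. Membrane regulators (8 listed, 4 tested) had none past the fold. The remaining 34 genes of the list, among them Cfd, Hc (C5), Mbl1, Mbl2, Cfi and Cr2, had under 20 UMIs in each of the 4 classes. The gene past the fold was Vsig4, the complement receptor of the immunoglobulin superfamily, with 27 and 158 UMIs and a log2 ratio of 2.21 [1.61, 2.85]. These UMIs came from 12 of 3647 and 21 of 3748 cells, and 1 MWA plus TIGIT cell held 36 of them, so the UMIs behind its interval are not independent. Of the Vsig4 UMIs, 7 and 80 lay in Slc7a2 Arg1 TAM-like cells, in 2 and 12 cells.

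In the other classes 1 gene each was past the fold and higher and none lower: C5ar2 among 13 tested in monocyte-like cells (68 and 154 UMIs, 0.59 [0.17, 1.03], 2.17% of genes), Itgam among 4 in neutrophil-like cells (23 and 45 UMIs, 0.79 [0.03, 1.58], 4.33%) and Cr1l among 9 in DC-like cells (16 and 35 UMIs, 1.31 [0.42, 2.26], 5.38%). Each rests on few UMIs.

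**Figure D5:**
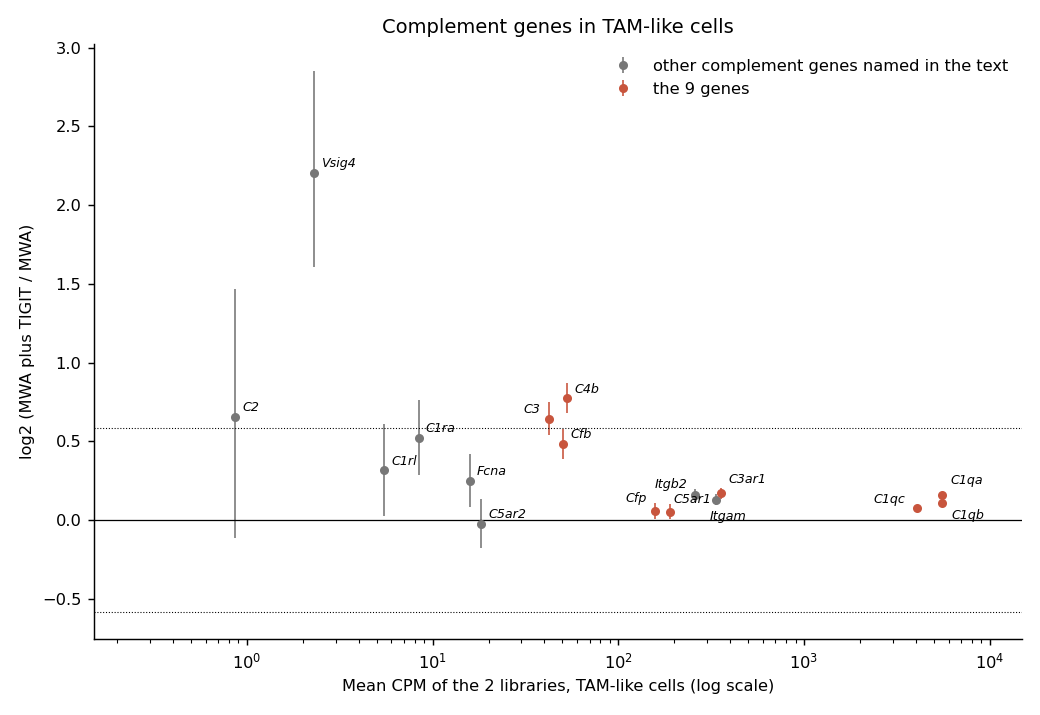
Log2 ratio of the MWA plus TIGIT over the MWA library in TAM-like cells against the mean CPM (log scale) of the 9 genes and of C1ra, C1rl, C2, Fcna, Itgam, Itgb2, C5ar2 and Vsig4. Bars are 95% counting intervals, dotted lines mark 1.5-fold, and the 9 genes are colored. C3, C4b and Vsig4 (0.64, 0.77 and 2.21) are, of the genes shown, those above the upper line whose intervals exclude 0.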

How the data were processed

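CD45+ cells of 2 libraries, 1 of each group, were measured by droplet 3′ single-cell RNA sequencing. The deposited values are raw counts of UMIs per gene and cell, made by the authors with Cell Ranger against mm10. The file headers name Cell Ranger 4.0.0 and the submitters' processing notes 6.1.1. Cells with under 200 genes, over 10% mitochondrial UMIs or a called doublet were left out. The doublet step, run here, recovered 56.67% and 60.33% of 300 doublets added to each library. Seurat 5.3.0 (R 4.3.3) integrated the libraries and clustered the cells (40 components, resolution 0.1 for all cells and 0.5 for myeloid cells). The 9 genes and the 57 other complement genes took no part in this. Counts were summed per type and library. CPM carry exact Poisson intervals, shares exact Clopper-Pearson intervals, and ratios exact conditional binomial intervals, all at 95%, and they cover counting error only. Where no UMI was found, 3 counts is the limit given. Pooled normalization factors came from edgeR 4.0.16 as an alternative. On simulated data for TAM-like cells, 95.4% of intervals held the true value and 94.5% of 199 genes changed 2-fold were recovered. The simulated counts were Poisson draws, the counting model that the intervals assume, so this checks the calculation only. It held no clumping of UMIs in cells and no spread between mice, so it cannot tell how the intervals fare with these. The 9 genes, the gene lists and the rules were chosen with earlier results of these data known. Named genes were the 9 members, the 3 genes most like each, and at most 12 of the other complement genes. Some genes that these rules name are not reported here.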

Additional observations from a re-analysis of the deposited data

Results flagged for a closer look

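The C1q chains had opposite directions between types. C1qa had a log2 ratio of the MWA plus TIGIT over the MWA library of 0.64 [0.26, 1.03] in cDC2-like cells (85 and 185 UMIs) and -0.15 [-0.19, -0.11] in Ccl24 monocyte-like cells. C1qb had 0.23 [0.20, 0.26] in Hilpda Mmp12 TAM-like cells and -0.40 [-0.73, -0.08] in Ace monocyte-like cells (174 and 154 UMIs). C1qc had 0.50 [0.04, 0.97] in cDC2-like cells (61 and 120 UMIs) and -0.45 [-0.88, -0.03] in Ace monocyte-like cells (104 and 89 UMIs). C1q in cDC2-like cells of both libraries, and in Ace monocyte-like cells of the MWA plus TIGIT library, was not separable from background by the share of thinned cells with a UMI. By CPM both types were higher than T-like and NK-like cells (323 and 315 CPM). C1q was 821 and 1134 CPM in cDC2-like and 804 and 707 CPM in Ace monocyte-like cells. The chain ratios were picked out because the signs are opposite in the pair of types. The difference was not tested, since each group has 1 library. Each ratio lay inside the 5th to 95th percentiles of all genes tested in its type. These ran from -0.69 to 1.11 in cDC2-like and from -0.73 to 0.86 in Ace monocyte-like cells. They ran from -0.50 to 0.61 in Ccl24 monocyte-like and from -0.52 to 0.595 in Hilpda Mmp12 TAM-like cells.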

How the results depend on the processing

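No paired analysis was possible because each group has 1 library, and for the same reason no replicate could be left out. The 2 members past 1.5-fold and higher in TAM-like cells were C3 and C4b under each alternative but a 2-fold limit, which left 0, and equal weight for the TAM-like kinds. With equal weight for the TAM-like kinds C3 was at 0.52, under 1.5-fold, and C4b at 0.73. Over all alternatives the C3 log2 ratio lay between 0.52 and 0.73, that of C4b between 0.70 and 1.20 and that of Cfb between 0.43 and 0.55. The C1q ratio of 0.12 was 0.13 with doublets kept, 0.093 with cells named by marker scores, 0.089 with cells over 5000 UMIs left out, 0.13 with thinned cells, 0.077 with TMM factors and, chosen after seeing the data, 0.10 with equal weight for the 5 TAM-like kinds. C1qc turned to -0.011 and C5ar1 to -0.014 with cells over 5000 UMIs left out, and Cfp to -0.035 with thinned cells. The log2 ratio of C1q in TAM-like over monocyte-like cells, 1.48 and 1.73, was 1.54 and 1.80 with the T-like and NK-like level subtracted, 1.53 and 1.70 with doublets kept, 2.72 and 2.68 with marker scores, 3.80 and 3.90 without cells over 5000 UMIs, 1.80 and 1.95 thinned, 1.36 and 1.63 with TMM factors, 1.81 and 1.91 with the 9 genes in the clustering and 1.83 and 1.89 at resolution 1. Member and type pairs past the fold and higher went from 4 to 2 in the broad classes and from 11 to 4 in the 9 kinds with thinned cells, which hold fewer UMIs. The pairs called then were C3 and C4b in TAM-like cells, and by kind C3 in Selenop and cycling and C4b in Selenop and Slc7a2 Arg1 TAM-like cells. TMM factors ended the calls of Cfp in DC-like cells (4 to 3), and of C1qa in cDC2-like and C4b in Ace monocyte-like cells (11 to 9). Marker scores gave 6 pairs in place of 4, without Cfp in DC-like or C4b in monocyte-like cells. They also put other cells in the classes. The DC class then held 227 and 373 C3 UMIs against 3 and 2, and the neutrophil class 629 and 446 C1qc UMIs against 21 and 30. Pairs past the fold and lower went from 0 to 2 in the broad classes with marker scores (C1qc and C3ar1 in cells named neutrophil) and from 0 to 2 in the 9 kinds with the T-like and NK-like level subtracted (C1qb and C1qc in Ace monocyte-like cells). The type with the highest level was kept for 6 of 9 members with marker scores and 8 of 9 thinned in the broad classes, and for 7 of 9 thinned and 8 of 9 with TMM factors in the kinds. Those that moved in the broad classes were C3, C5ar1 and Cfp with marker scores and C3 thinned. In the kinds they were C1qc and C3 thinned and C1qc with TMM factors. Other complement genes past the fold in TAM-like cells went from 1 to 2 with thinned cells. With 10 CPM added, 9 of 21 alike genes were kept. The causes were not tested.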
